A study of Mus musculus with 4 samples.

Results

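The Wnt pathway was described in 4 cultured mouse melanoma lines through 53 genes, read by 56 of the 33012 probes of the array, out of 15694 gene symbols in all. Genes were members when their symbol began with Wnt, Fzd, Dkk, Sfrp or Dvl followed by a digit, or was 1 of 19 listed names: Lrp5, Lrp6, Ctnnb1, Apc, Axin1, Axin2, Gsk3b, Tcf7, Tcf7l1, Tcf7l2, Tcf3, Tcf4, Wif1, Nkd1, Nkd2, Porcn, Ror1, Ror2 and Csnk1a1. Of the members, 51 had 1 probe, Fzd2 had 3 and Fzd8 had 2. The symbols Ctnnb1, Axin1 and Tcf7l1 matched no probe under these spellings. Axin1 was not analysed here, Tcf3 is an older name of Tcf7l1 as well as the current name of an E-box protein, and beta-catenin was read through its older symbol, Catnb.

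B16 is a melanoma line of the C57BL6 strain. Cells of its F1 subline were injected intradermally into the back skin of C57BL6 mice, and B16-RI was grown from lymph node metastases of the tumours. B16-RI was injected in the same way, and the second round gave B16-RII from lymph nodes and B16-RIIL from lung. All 4 lines were grown in DMEM with fetal bovine serum before RNA extraction, so the values describe cultured cells and not metastases in the animal. The RNA of each line was a pool of 2 passage numbers, and how many mice stood behind each line is not given in the sources used here. RNA was read on Applied Biosystems arrays, on which a probe gives a single chemiluminescence signal. The study describes duplicate cultures of every line, but the labels hold 1 sample per line, and only the array of that sample was used here, so the number of arrays limits the precision and no difference below has a replicate check.

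A probe was called detected where its signal-to-noise ratio (S/N) was at least 3 and its flag at most 5000. By this rule 42.0% to 45.0% of all probes were detected on an array, and 11604 were detected on all 4. The 5 melanocyte markers that matched a probe (Mitf, Tyr, Tyrp1, Dct and Pmel) were detected on every array, with a summed normalized signal between 5632 and 6951. Of markers of other cells, 3 or 4 of 5 lymphocyte genes, 1 or 2 of 5 macrophage genes, 0 to 2 of 5 fibroblast genes, 0 or 1 of 5 endothelial genes and 0 to 2 of 4 lung epithelial genes were detected on an array. The lymphocyte sum was 61.6 in B16, 73.1 in B16-RI, 90.5 in B16-RII and 66.0 in B16-RIIL, and 1 Cd79a probe made up most of it on every array, the parental line included. Some markers lay above B16 under all scalings. Lck read 1.10 in B16 and 2.67, 4.0 and 1.59 in B16-RI, B16-RII and B16-RIIL, all detected, or 2.43-fold and 3.64-fold above B16 on B16-RI and B16-RII. The other Cd79a probe was at least 2.90-fold above B16 on B16-RI. Cd2 read 3.02, 2.38, 4.95 and 2.02 in B16, B16-RI, B16-RII and B16-RIIL. Cd79b was detected on no array and neither Cd3e probe was detected on B16-RII. Pecam1, an endothelial marker, read 0.52, 1.34, 2.44 and 1.02 and was at least 4.69-fold above B16 on B16-RII, while the endothelial genes Cdh5, Kdr, Tek and Lyve1 were detected on no array. Other markers lay below B16 under all scalings. Sftpb did by at least 2.41-fold, 2.28-fold and 2.71-fold on B16-RI, B16-RII and B16-RIIL. Epcam did by at least 2.94-fold and 4.14-fold on B16-RI and B16-RII, and Col1a1 by at least 2.57-fold on B16-RI. On B16-RIIL Epcam read 2.10 beside 1.53 in B16, and Scgb1a1, detected there alone, read 2.59 beside 1.32. Neither was 2-fold apart on the deposited scale. The lung epithelial sum was 4.70 in B16, 3.52 in B16-RI, 2.65 in B16-RII and 5.57 in B16-RIIL. The parts of other cells, of less RNA per cell and of fewer cells in the values below cannot be told apart on bulk RNA and were not tested.

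Wnt proteins are secreted lipid-modified ligands that bind Frizzled receptors and the co-receptors Lrp5 and Lrp6. Without ligand, beta-catenin is phosphorylated by a destruction complex of Axin, Apc, casein kinase 1 and Gsk3b and is degraded, and with ligand Dishevelled proteins interrupt that complex so that beta-catenin reaches the nucleus and works with transcription factors of the Tcf and Lef family. Ligands such as Wnt5a also act without beta-catenin, through cell polarity and calcium signalling. In the melanocyte lineage Wnt signals guide neural crest cells towards the pigment cell fate, and Mitf is a known target.

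Of the 53 members, 29 were detected on at least 1 array, 16 on all 4 and 24 on none. The number of member probes detected was 22 in B16, 23 in B16-RI, 23 in B16-RII and 21 in B16-RIIL. These were 39.3%, 41.1%, 41.1% and 37.5% of the 56 member probes, in each case under the share of all probes on the same array. The receptor side was widely detected, with 9 of 11 receptor genes on at least 1 array and 7 on all 4. Ligands and secreted inhibitors were mostly below detection, with 7 of 19 ligands and 2 of 9 inhibitors on any array and 2 and 0 on all 4. Among Dishevelled and destruction complex genes 6 of 7 were detected, among transcription factors 4 of 4, and among the remaining regulators 1 of 3.

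The members detected on no array were the ligands Wnt1, Wnt2, Wnt3, Wnt3a, Wnt4, Wnt8a, Wnt8b, Wnt9a, Wnt9b, Wnt10a, Wnt11 and Wnt16, the receptor kinases Ror1 and Ror2, and the secreted inhibitors Dkk1, Dkk3, Dkk4, Sfrp2, Sfrp4, Sfrp5 and Wif1. Axin2, a scaffold of the destruction complex and a widely used target gene of the pathway, and the feedback inhibitors Nkd1 and Nkd2 were also below detection on all 4 arrays. The highest S/N among these probes was 2.81, for Sfrp4 in B16-RII. Low signals on these arrays do not show that a gene was silent, only that it was not above the noise limit.

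Differences between lines were read on the log2 scale of the normalized signal, and a probe was counted when it differed at least 2-fold and was detected on the brighter array. The median probe detected on all 4 arrays was itself brighter than on B16, by 0.21 log2 units on B16-RI, 0.41 in B16-RII and 0.22 in B16-RIIL. Each count was therefore repeated under 4 other scalings of the arrays (quantile normalization, the median, the 75th percentile, and centring of the 2 sets of probes that the deposited values scale separately), and a difference is said to hold where the signals as read stayed at least 2-fold apart under all of them. Where the dimmer array did not detect the probe, the fold is given as at least the stated value, taken against the signal read there or, where higher, the lowest signal detected on it (0.31 to 0.42 by array).

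Above B16 lay 4 member probes on B16-RI, namely Fzd6, Sfrp1, Wnt5a and Wnt6, or 7.14% of 56 beside 4.95% of all probes. On B16-RII there were 6, Fzd1, Fzd6, Wnt2b, Wnt6, Wnt7a and Wnt7b, or 10.7% beside 6.52%. On B16-RIIL there were 3, Dvl1, Fzd6 and Wnt6, or 5.36% beside 6.43%. Below B16 lay 0 members on B16-RI, where 4.55% of all probes were counted, and 0 in B16-RII, where 3.79% were. On B16-RIIL 2 members, Apc and Fzd8, lay below B16, or 3.57% beside 4.25% of all probes. With 56 probes each of these shares rests on 0 to 6 probes, and the shares lay near the background. Wnt6 and Fzd6 were the 2 members above B16 on all 3 passaged arrays, or 3.57% of member probes beside 1.14% of all probes.

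**Figure D1:**
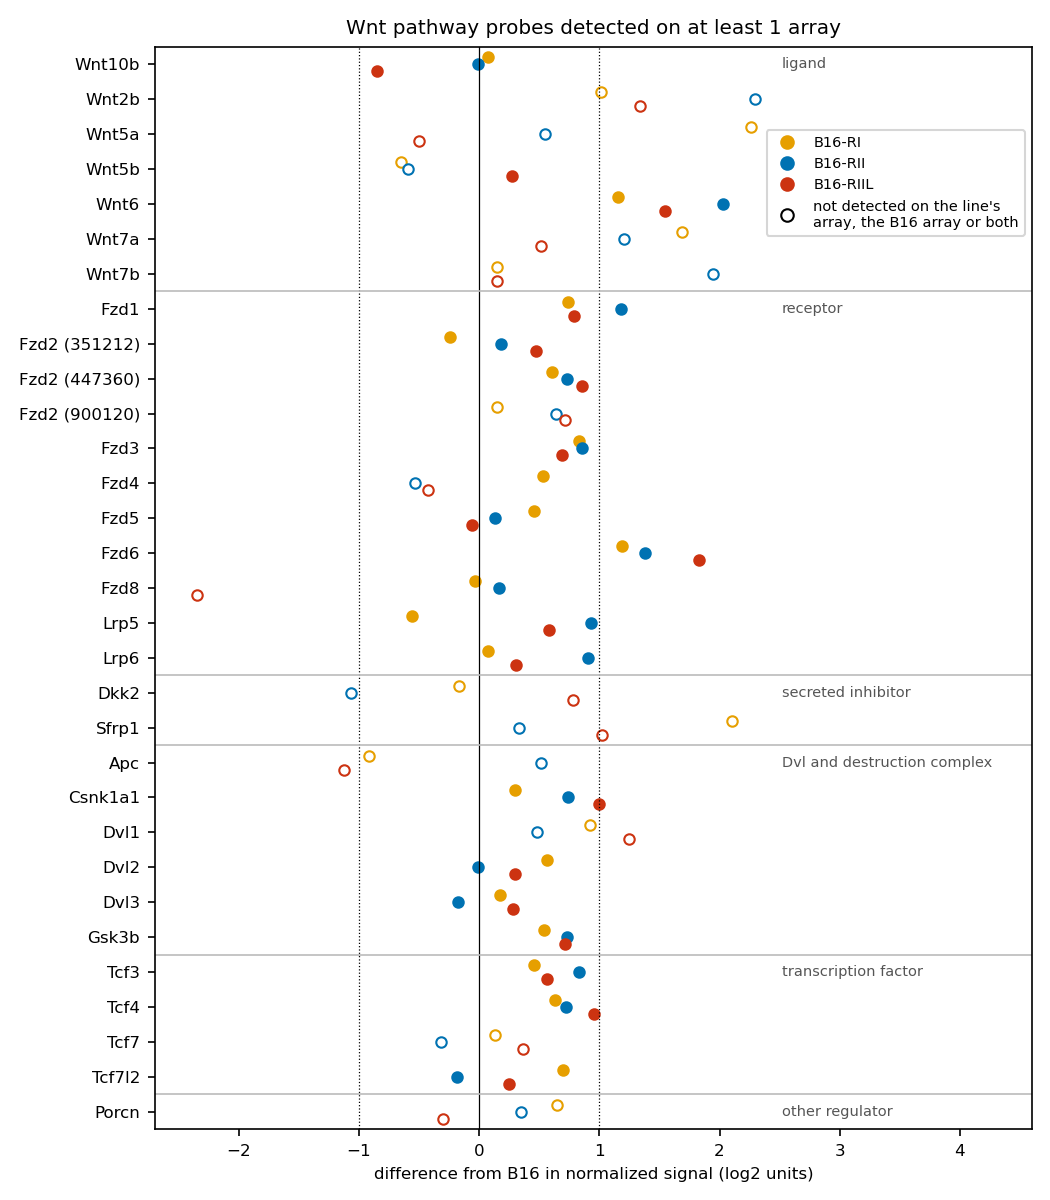
Difference from B16 in normalized signal (horizontal axis, log2 units, 1 array per line) for the 31 member probes detected on at least 1 array, grouped by role, with B16-RI in orange, B16-RII in blue and B16-RIIL in red. Open points mark probes not detected on 1 or both arrays and the dotted lines mark 2-fold; Wnt6 and Fzd6 are the probes with 3 filled points to the right of the upper dotted line.

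The plot of differences by role places most filled points to the right of 0. Over the 16 member genes detected on all 4 arrays the median difference from B16 was 0.55 log2 units on B16-RI, 0.74 in B16-RII and 0.64 in B16-RIIL. The medians over 7448 genes chosen in the same way were 0.22, 0.45 and 0.26. Of the 16 genes, 12, 11 and 13 lay above these medians of all genes. On B16-RI the median of the members minus that of all genes was 0.33 log2 units, and 0.16 under centring of the probe sets. The members ranged from -0.56 to 1.19 in B16-RI, from -0.18 to 2.03 in B16-RII and from -0.85 to 1.83 in B16-RIIL. A probe had to be detected on every array to enter these medians, so they describe the detected members and not the whole list. Without the detection filter the median of the members minus that of all genes was 0.11 log2 units on B16-RI, -0.032 on B16-RII and 0.14 on B16-RIIL.

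Wnt6, a ligand with roles in kidney and neural crest development, was the single ligand that lay 2-fold apart between arrays that both detected it. Its normalized signal was 5.10 in B16, 11.4 in B16-RI, 20.8 in B16-RII and 14.9 in B16-RIIL, with S/N between 8.71 and 29.0. All 3 passaged lines lay above the parental line, the second-round lymph node line highest. The difference from B16 was 2.23-fold on B16-RI, 4.08-fold on B16-RII and 2.92-fold on B16-RIIL. Over the 5 scalings the lowest values were 1.02, 1.51 and 1.31 log2 units, so the 3 differences held. Of the 11604 probes detected on all arrays, 1.78%, 0.422% and 1.08% lay at least as far above B16 on the 3 lines. With centred probe sets the shares were 0.819%, 0.422% and 0.552%. Wnt6 lies next to Wnt10a on chromosome 1, and Wnt10a was detected on no array.

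Wnt10b, the other ligand detected on every array, had normalized signals of 6.85 in B16, 7.19 in B16-RI, 6.80 in B16-RII and 3.81 in B16-RIIL. It differed little between the first 3 lines and was lower by 0.85 log2 units in the lung line, short of the 2-fold limit on the deposited scale and past it under quantile normalization (-1.08) and 75th percentile scaling (-1.07). Its neighbour on chromosome 15 is Wnt1, which was detected on no array.

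The other 5 ligands were each detected on 1 or 2 arrays. Wnt2b read 0.51 in B16, 1.03 in B16-RI, 2.51 in B16-RII and 1.29 in B16-RIIL and was detected on B16-RII alone, with an S/N of 5.61. Wnt7b read 0.28, 0.31, 1.08 and 0.31 in the same order and was also detected on B16-RII alone, with an S/N of 4.67. The B16-RII signals of both ligands were above B16, at least 4.92-fold for Wnt2b and at least 3.48-fold for Wnt7b, and both differences held under the other scalings. Lck and Pecam1 were also highest on B16-RII, where Cd3e, Cd79b, Cdh5, Kdr, Tek and Lyve1 were not detected. The part of other cells in these ligand signals was not tested. Against B16-RI, the line it was grown from, B16-RII was at least 2.44-fold higher for Wnt2b and at least 2.57-fold higher for Wnt7b. The difference in Wnt2b came to 0.89 and 0.86 log2 units under 2 scalings, and that in Wnt7b held. B16-RIIL was at least 3.38-fold lower than B16-RII for Wnt7b.

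Wnt7a, a ligand with roles in limb and nerve development, was detected on B16-RII alone, with an S/N of 4.68. Its normalized signals were 1.47 in B16, 4.73 in B16-RI, 3.38 in B16-RII and 2.10 in B16-RIIL. The highest reading, on B16-RI, had an S/N of 2.96, just under the limit, and was not counted. B16-RII was at least 2.30-fold above B16, which came to 0.77 log2 units under centring of the probe sets.

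Wnt5a, the ligand best known for signalling without beta-catenin and for its part in melanoma cell motility, was detected on B16-RI alone, with an S/N of 4.06. Its normalized signals were 0.24 in B16, 1.15 in B16-RI, 0.35 in B16-RII and 0.17 in B16-RIIL, the last with a flag over the limit. B16-RI was at least 3.71-fold above B16, and B16-RII and B16-RIIL were at least 3.11-fold and 3.59-fold below B16-RI. Its close relative Wnt5b was detected on B16 and B16-RIIL, with signals of 1.43, 0.91, 0.95 and 1.73 across the 4 lines, and no pair of lines differed 2-fold on the deposited scale. B16-RIIL lay 0.86 log2 units above B16-RII for Wnt5b, and 1.03 to 1.28 under the other scalings. B16-RII lay below B16 by 2-fold or more under 75th percentile scaling (-1.11) and centring (-1.02), and B16-RIIL above B16-RI under quantile normalization (1.01). Wnt5a and Wnt5b thus had no line in common on which both were detected.

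Sequences upstream of the ligands are shown because Wnt6, Wnt2b and Wnt7a were counted above B16 on B16-RII, and because Tcf and Lef factors bind the core CTTTGAT. Promoter windows of 300 bases, 250 before and 50 after the start of transcription, were taken from RefSeq on GRCm38.p6 for the 34 members that had one. The core was searched on both strands and was found for 2 of the 34, Wnt5b and Wnt11 (5.88%), beside 4.29% of 27025 genes. In the sequences below capitals mark CTTTGAT or its reverse complement ATCAAAG, the TATA box TATAAA, and the GC box GGGCGG or its reverse complement CCGCCC, of which neighbouring matches can overlap. The GC box was present in the windows of 38.2% of all genes. The windows are Wnt6 at chr1:74771642-74771941 on the plus strand, Wnt7a at chr6:91411304-91411603, Wnt2b at chr3:104961660-104961959, and the start of Wnt5b that holds the core at chr6:119449337-119449636, the last 3 on the minus strand.
Wnt6: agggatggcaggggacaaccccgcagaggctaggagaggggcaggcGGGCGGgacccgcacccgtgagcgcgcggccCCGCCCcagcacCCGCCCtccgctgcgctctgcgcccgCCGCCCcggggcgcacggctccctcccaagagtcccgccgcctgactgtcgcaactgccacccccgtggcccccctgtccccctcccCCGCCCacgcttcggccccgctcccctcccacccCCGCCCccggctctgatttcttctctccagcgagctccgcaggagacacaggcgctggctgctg
Wnt7a: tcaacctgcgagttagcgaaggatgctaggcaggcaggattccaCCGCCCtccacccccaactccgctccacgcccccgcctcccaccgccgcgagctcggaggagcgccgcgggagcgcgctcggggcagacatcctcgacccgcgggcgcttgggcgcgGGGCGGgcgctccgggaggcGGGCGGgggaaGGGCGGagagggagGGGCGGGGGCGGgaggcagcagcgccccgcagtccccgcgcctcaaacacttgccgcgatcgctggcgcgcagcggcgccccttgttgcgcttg
Wnt2b: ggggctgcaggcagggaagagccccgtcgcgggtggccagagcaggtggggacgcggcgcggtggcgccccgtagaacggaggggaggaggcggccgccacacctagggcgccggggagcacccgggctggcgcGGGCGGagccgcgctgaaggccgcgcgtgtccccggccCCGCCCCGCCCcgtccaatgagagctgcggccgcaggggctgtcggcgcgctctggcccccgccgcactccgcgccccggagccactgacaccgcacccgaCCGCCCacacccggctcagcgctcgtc
Wnt5b: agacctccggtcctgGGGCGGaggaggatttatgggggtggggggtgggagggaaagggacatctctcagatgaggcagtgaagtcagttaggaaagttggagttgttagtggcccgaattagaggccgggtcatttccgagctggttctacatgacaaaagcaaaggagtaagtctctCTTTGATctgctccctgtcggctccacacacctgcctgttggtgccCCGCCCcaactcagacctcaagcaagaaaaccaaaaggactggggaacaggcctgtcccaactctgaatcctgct
The Wnt6 window held 6 GC boxes and was 76.7% G and C, the Wnt7a window held 6 and was 76.0%, and the Wnt2b window held 4, of which 2 overlap by a base, and was 79.7%. None of these 3 held the Tcf core. The Wnt5b window shown held 1 core and 2 GC boxes and was 55.0% G and C. Other starts of Wnt5b held 0 cores. The window at chr6:119544298-119544597 held 3 GC boxes and was 78.0% G and C, and that at chr6:119467162-119467461 held 0 and was 53.0%. A gene with more starts has more windows in which the core can be found. A match in a window is a description of its letters and not a measured binding site.

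Among the Frizzled receptors, which bind the ligands at the cell surface, Fzd6 lay farthest above B16 on the deposited scale. Fzd6, known for polarity of hair and epithelial cells, had normalized signals of 2.40 in B16, 5.47 in B16-RI, 6.24 in B16-RII and 8.51 in B16-RIIL, with S/N between 3.34 and 11.6. All 3 passaged lines read higher than B16, with the lung line highest. The fold over B16 was 2.28 in B16-RI, 2.60 in B16-RII and 3.55 in B16-RIIL. Under centring of the probe sets the log2 differences were 0.79 and 0.95 on the lymph node lines, under the limit, and 1.31 in B16-RIIL. Of the probes detected on all arrays, 1.60%, 1.86% and 0.543% lay at least as far above B16, and 2.79%, 1.88% and 0.870% with centred probe sets. Among the 20 detected genes nearest to Fzd6 on chromosome 15, 0 lay as far above B16 as Fzd6 on any line. The same held for the 20 nearest to Wnt6 on chromosome 1. Of the 12 nearest to Fzd1 on chromosome 5, 1 lay at least as high as Fzd1 on each line. The highest neighbour of Fzd6 lay 1.05, 1.24 and 1.07 log2 units above B16, and that of Wnt6 0.95, 1.06 and 0.98. These members were named for being high, so few neighbours could pass them, and a change of the region was not tested.

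Fzd1 had normalized signals of 12.7 in B16, 21.2 in B16-RI, 28.9 in B16-RII and 22.0 in B16-RIIL. All 3 passaged arrays read higher, and the 2.27-fold difference of B16-RII passed the limit on the deposited scale alone, with 0.57 to 1.00 log2 units under the other scalings. The Fzd1 promoter window is chr5:4758167-4758466 on the minus strand of GRCm38.p6. It held 0 GC boxes and a TATAAA match (capitals) and was 54.0% G and C. It does not stand for the receptors, as the window of Fzd4 held 8 GC boxes and was 72.7% G and C.
Fzd1: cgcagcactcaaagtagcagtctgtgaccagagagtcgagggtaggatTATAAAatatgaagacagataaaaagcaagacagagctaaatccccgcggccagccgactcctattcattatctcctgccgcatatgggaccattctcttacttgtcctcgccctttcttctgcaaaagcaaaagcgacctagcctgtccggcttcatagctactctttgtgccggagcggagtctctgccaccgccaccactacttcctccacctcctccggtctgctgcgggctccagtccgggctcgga

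Fzd2, an intronless receptor gene, was read by 3 probes that did not read alike. The first probe read 10.4 in B16, 15.8 in B16-RI, 17.2 in B16-RII and 18.8 in B16-RIIL. The next read 3.13, 2.64, 3.55 and 4.34, and the last, detected on both second-round lines, read 1.03, 1.14, 1.60 and 1.69. The first and last probes read higher in each line of that order, while the other was lowest on B16-RI, and no probe differed 2-fold from B16.

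Fzd3 and Fzd5 were detected on every array. Fzd3 read 3.10, 5.50, 5.62 and 5.01 in B16, B16-RI, B16-RII and B16-RIIL. The 3 passaged lines lay above B16 by 0.83, 0.86 and 0.69 log2 units. B16-RII came to 1.01 under median scaling, and the 3 lines came to 0.43, 0.43 and 0.17 under centring of the probe sets. Fzd5 read 4.39, 6.01, 4.81 and 4.22 in the same order, with B16-RI highest. Fzd4, a receptor that also serves vessel growth, read 1.65, 2.38, 1.14 and 1.23 and was detected on B16 and B16-RI only. B16-RII was at least 2.09-fold below B16-RI for Fzd4, and that difference held.

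Fzd8 was the receptor that set the lung line apart. Its detected probe had normalized signals of 1.22 in B16, 1.19 in B16-RI and 1.37 in B16-RII, with S/N between 3.32 and 4.02, and 0.24 in B16-RIIL, where it was not detected. B16-RIIL was at least 3.81-fold lower than B16, at least 3.72-fold lower than B16-RI and at least 4.28-fold lower than B16-RII. The 3 differences held under the other scalings, but the brighter signals were near the detection limit and none of them had an S/N of 5. The other Fzd8 probe was detected on no array.

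The co-receptors Lrp5 and Lrp6 were detected on every array. Lrp5 read 3.16 in B16, 2.14 in B16-RI, 6.04 in B16-RII and 4.72 in B16-RIIL. It was lowest in the first-round line and higher in both lines grown from it, by 2.82-fold on B16-RII and 2.21-fold on B16-RIIL against B16-RI, and both differences held. Lrp6 read 4.21, 4.42, 7.90 and 5.20 in the same order, with B16-RII highest and no pair of lines 2-fold apart.

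Between the passaged lines the counts lay near the background. B16-RII differed from B16-RI for 6 member probes, or 10.7% beside 8.2% of all probes, with Lrp5, Wnt2b and Wnt7b above and Fzd4, Sfrp1 and Wnt5a below. B16-RIIL differed from B16-RI for 4, or 7.14% beside 9.5%, with Lrp5 above and Fzd8, Sfrp1 and Wnt5a below. The lung and lymph node lines of the second round differed for 3, or 5.36% beside 8.59%, with Dkk2 above and Fzd8 and Wnt7b below on B16-RIIL.

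**Figure D2:**
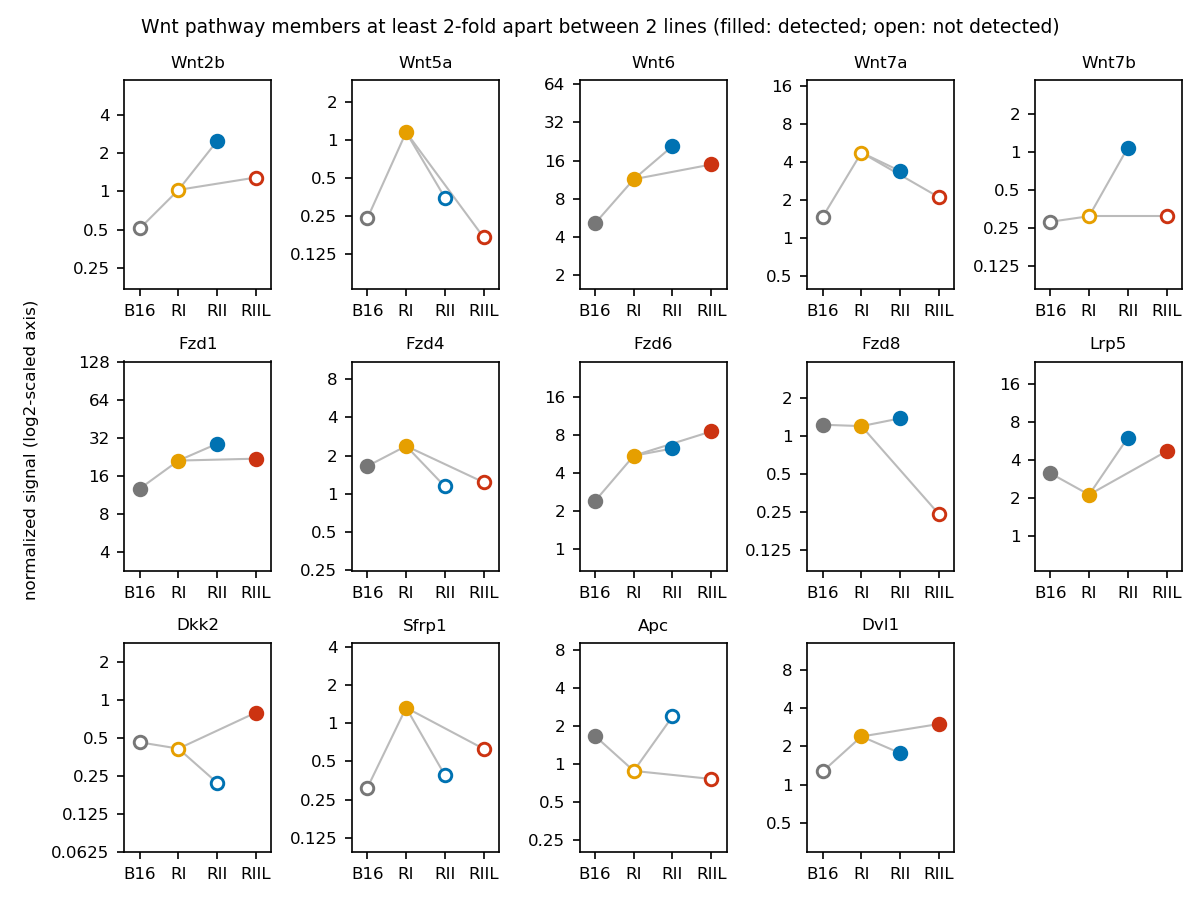
Normalized signal (vertical axes, log2-scaled, each over its own range) of the 14 member genes at least 2-fold apart between any pair of lines, on the 4 arrays, with grey lines joining each line to the one it was grown from. Filled points were detected and open points were not; Wnt6, Fzd1, Fzd6 and Lrp5 are the 4 genes detected on all 4 arrays.

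The plot of the 14 genes shows how many of these differences rest on an array without detection. Of 28 differences counted over the 6 pairs of lines, 9 were between arrays that both detected the probe, in Wnt6, Fzd1, Fzd6 and Lrp5. The other 19 were bounds, and 10 genes were counted through bounds only. Of the 28 differences 22 held under all scalings. A further 13, in 9 genes, fell short of 2-fold on the deposited scale and passed it under at least 1 other scaling, namely in Apc, Csnk1a1, Dkk2, Fzd3, Fzd4, Porcn, Tcf4, Wnt5b and Wnt10b.

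**Figure D3:**
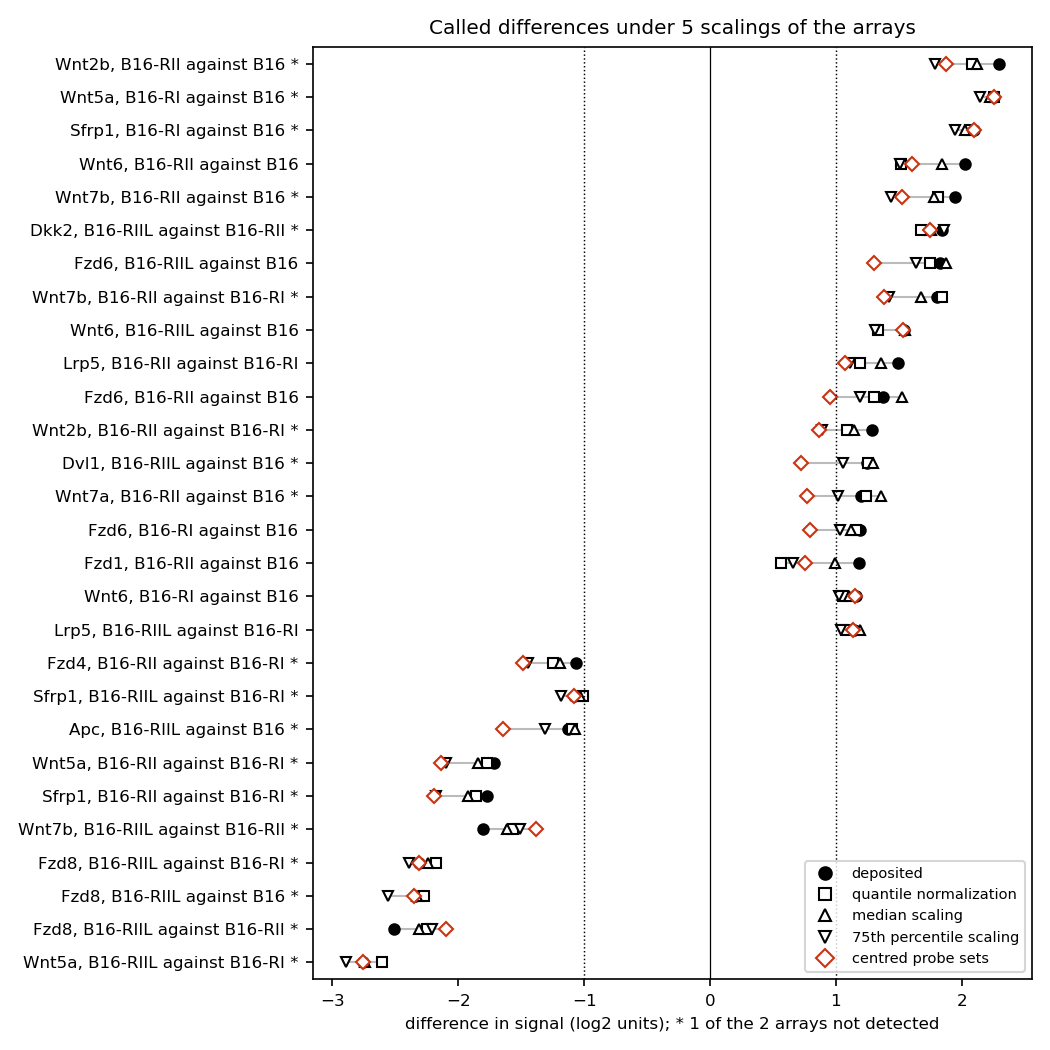
The 28 counted differences (horizontal axis, log2 units) under the deposited scale and 4 other scalings of the arrays, with an asterisk where 1 of the 2 arrays did not detect the probe. The dotted lines mark 2-fold; 10 of the 112 values under other scalings fall inside them and 0 lie on the other side of 0.

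The secreted inhibitors capture ligands or block the co-receptors, and 2 were detected, each on 1 array. Sfrp1, a soluble Frizzled-related protein, read 0.31 in B16, 1.33 in B16-RI, 0.39 in B16-RII and 0.63 in B16-RIIL and was detected on B16-RI with an S/N of 3.96. B16-RI was at least 4.29-fold above B16, and B16-RII and B16-RIIL were at least 3.41-fold and 2.11-fold below B16-RI. Sfrp1 and Wnt5a thus had B16-RI as their single array with detection. Dkk2, which binds the co-receptors, read 0.46, 0.41, 0.22 and 0.79 and was detected on B16-RIIL with an S/N of 3.13, at least 2.14-fold above B16-RII.

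Dishevelled proteins relay the signal from Frizzled receptors. Dvl1 read 1.27 in B16, where it was not detected, 2.40 in B16-RI, 1.77 in B16-RII and 3.01 in B16-RIIL, at least 2.37-fold above B16 in the lung line. That difference came to 0.73 log2 units under centring of the probe sets. Dvl2 read 3.05, 4.50, 3.03 and 3.75 and Dvl3 read 2.87, 3.23, 2.54 and 3.49 in B16, B16-RI, B16-RII and B16-RIIL, with no pair of lines 2-fold apart. Of the 3 Dishevelled genes, Dvl2 and Dvl3 were detected on every array.

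Of the destruction complex, Gsk3b, the kinase that marks beta-catenin for degradation, read 32.4 in B16, 47.1 in B16-RI, 53.7 in B16-RII and 53.1 in B16-RIIL, with no pair 2-fold apart. Csnk1a1, the priming kinase, read 6.34, 7.80, 10.6 and 12.7, and its difference on B16-RIIL, 1.00 log2 units after rounding, was just under the limit, with 1.05 under median scaling and 0.48 under centring of the probe sets. Apc, the scaffold and tumour suppressor, was detected on B16 alone, with an S/N of 3.71. Apc read 1.66 in B16, 0.88 in B16-RI, 2.37 in B16-RII and 0.76 in B16-RIIL, and the lung line was at least 2.18-fold below B16. On B16-RI the difference from B16 was -0.92 log2 units on the deposited scale. It passed 2-fold under quantile normalization (-1.06), 75th percentile scaling (-1.07) and centring of the probe sets (-1.31). The highest Apc reading, on B16-RII, had an S/N of 2.85 and was not counted. Axin2 read 0.57, 0.61, 0.74 and 0.62 and was below detection throughout.

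Beta-catenin itself, listed as Catnb, was well above noise on every array, with S/N between 73.0 and 91.4. Its normalized signal was 90.0 in B16, 124 in B16-RI, 105 in B16-RII and 122 in B16-RIIL, and no pair of lines was 2-fold apart under any scaling. Its differences from B16 were 1.38-fold, 1.16-fold and 1.36-fold on the deposited scale. Over the scalings they ran from 0.06 to 0.46 log2 units on B16-RI, from -0.21 to 0.37 in B16-RII and from -0.08 to 0.49 in B16-RIIL, so that the direction on both second-round lines depended on the scaling. RNA arrays do not show the phosphorylation or stability of the protein.

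The transcription factors were all detected on at least 1 array, and none differed 2-fold between lines on the deposited scale. Tcf7l2, a DNA-binding partner of beta-catenin, read 2.02 in B16, 3.27 in B16-RI, 1.78 in B16-RII and 2.40 in B16-RIIL. Tcf7, its relative in T cells, read 3.61, 3.95, 2.89 and 4.64 and was detected on B16 alone with an S/N of 4.81. The symbols Tcf3 and Tcf4 carry a limit, since each has named both a partner of beta-catenin (Tcf7l1 and Tcf7l2) and an E-box protein. The probe listed as Tcf3 read 4.76, 6.52, 8.49 and 7.03. The probe listed as Tcf4 read 35.8, 55.4, 59.2 and 69.4, and its difference of 0.96 log2 units between B16-RIIL and B16 came to 1.01 under median scaling and 0.44 under centring of the probe sets. The E-box protein of the Tcf3 gene has a probe of its own under an older symbol, and Tcf7l2 also has its own, so which gene these 2 probes read was not settled here. Porcn, the enzyme that adds the lipid to Wnt ligands, read 1.11, 1.74, 1.41 and 0.90 and was detected on B16-RI alone with an S/N of 3.07.

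The lines can also be set in the order B16, B16-RI, B16-RII and B16-RIIL, although the lung line was grown from B16-RI and not from B16-RII. Of the 17 member probes detected on all arrays, 4 were higher at each step, or 23.5% beside 11.7% of all such probes. They were Csnk1a1, the first Fzd2 probe, Fzd6 and Tcf4. Under the other scalings the number was 3 or 4 of 17, beside 8.91% of all such probes under quantile normalization, 13.8% under median scaling, 8.76% under 75th percentile scaling and 6.11% under centring of the probe sets. Fzd6 and Tcf4 were among them each time.

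Other genes of the pathway were read from a list of 106, of which 87 matched a probe and 65 were detected. Of their 94 probes, 11 lay at least 2-fold above B16 on B16-RI, 12 in B16-RII and 13 in B16-RIIL, or 11.7%, 12.8% and 13.8% beside the 4.95%, 6.52% and 6.43% of all probes. Below B16 lay 7, 6 and 4, or 7.45%, 6.38% and 4.26% beside 4.55%, 3.79% and 4.25%. Of these differences 13, 10 and 12 held under all scalings on the 3 lines. A count needs detection, and most parts of this list were detected more often than all probes. Genes detected on B16 were 7 of 19 at the receptor level, 10 of 16 in the cytoplasm and 8 of 11 in the nucleus. They were 8 of 11 in the polarity branch and 19 of 34 textbook targets, beside 43.5% of all probes. The shares were thus not compared at equal detection. In all 29 genes were counted, and the 12 with the greatest difference between signals as read, before any bound was set, are given here. With bounds in place of undetected signals Met, a receptor tyrosine kinase outside these 12 and named after its values were seen, would come before Celsr1. Met read 3.42 in B16, 3.38 in B16-RI, 8.92 in B16-RII and 11.9 in B16-RIIL, and its 3.47-fold difference on B16-RIIL held under all scalings.

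Csnk1e, a casein kinase 1 that phosphorylates Dishevelled and other pathway proteins, was the single gene of the 12 detected on all 4 arrays and 2-fold from B16 in every passaged line. Its normalized signal was 43.3 in B16, 224 in B16-RI, 268 in B16-RII and 317 in B16-RIIL. All passaged lines were above B16, by 5.17-fold, 6.20-fold and 7.32-fold, with detection on all arrays and under all scalings. Frat2, which binds Gsk3b and keeps it from beta-catenin, read 0.16, 2.13, 1.16 and 1.37 and was at least 6.87-fold above B16 on B16-RI and at least 4.42-fold on B16-RIIL, but was not detected on B16-RII. Its S/N of 3.16 on B16-RI, 2.58 on B16-RII and 3.09 on B16-RIIL lay close to the limit.

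Those of the 12 genes that set receptor levels lay on both sides. The receptor level and secretion part of the list had 19 matched genes, of which 12 were detected on at least 1 array. Lgr5, the receptor of R-spondins and a target of the pathway, read 0.93 in B16, with an S/N of 2.99, and 5.51, 10.3 and 7.68 in B16-RI, B16-RII and B16-RIIL. The 3 lines were at least 5.92-fold, 11.1-fold and 8.26-fold above B16. Rnf43, a ubiquitin ligase that removes Frizzled receptors and is also a target, read 6.49 in B16 and 0.27, 0.19 and 0.44 on the passaged lines, none of which detected it. The passaged lines were at least 15.5-fold, 17.5-fold and 14.8-fold lower for Rnf43. Rspo1, an R-spondin that through Lgr receptors keeps Rnf43 from Frizzled, read 0.36, 0.48, 0.60 and 2.61 and was at least 7.25-fold above B16 on B16-RIIL, the single line that detected it. Lgr5 and Rnf43, both target genes in textbooks, thus lay on opposite sides of B16 in all 3 passaged lines.

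In the polarity branch Daam1, a formin downstream of Dishevelled, read 2.26 in B16 and 0.49, 0.41 and 0.42 on the passaged lines, at least 4.61-fold, 5.51-fold and 5.38-fold lower. Celsr1, a cadherin of the polarity complex, read 1.23, 0.33, 0.30 and 1.43, at least 2.93-fold and 3.32-fold below B16 on B16-RI and B16-RII and detected again on B16-RIIL. Invs, which binds Dishevelled, read 0.28, 0.95, 1.20 and 2.13 and was detected on B16-RII alone with an S/N of 3.26, at least 3.87-fold above B16, while the higher reading on B16-RIIL had an S/N of 2.92. Celsr1 was near the limit where it was detected, with an S/N of 3.18 on B16 and 3.15 on B16-RIIL, and Daam1 was detected on none of the 3 passaged lines.

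The textbook targets among the 12 genes also lay on both sides, but the 12 were taken for their greatest differences. In all 34 textbook targets matched a probe and 25 were detected on at least 1 array. Tiam1, an activator of Rac, read 2.07, 0.40, 0.72 and 0.38 and lay below B16 by at least 4.93-fold, 2.88-fold and 5.45-fold. Ccn2, a matrix-associated growth factor, read 2.15, 8.85, 5.33 and 2.09, 4.12-fold above B16 on B16-RI, 2.48-fold on B16-RII and 0.972-fold on B16-RIIL. Bmp4 read 1.75, 0.48, 3.53 and 1.52, at least 3.65-fold below B16 on B16-RI and 2.02-fold above it on B16-RII. The B16-RII values of Ccn2 and Bmp4 did not hold under all scalings. Ppard, a nuclear receptor, read 0.73, 1.86, 2.59 and 0.41, at least 2.55-fold and 3.55-fold above B16 on B16-RI and B16-RII.

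**Figure D4:**
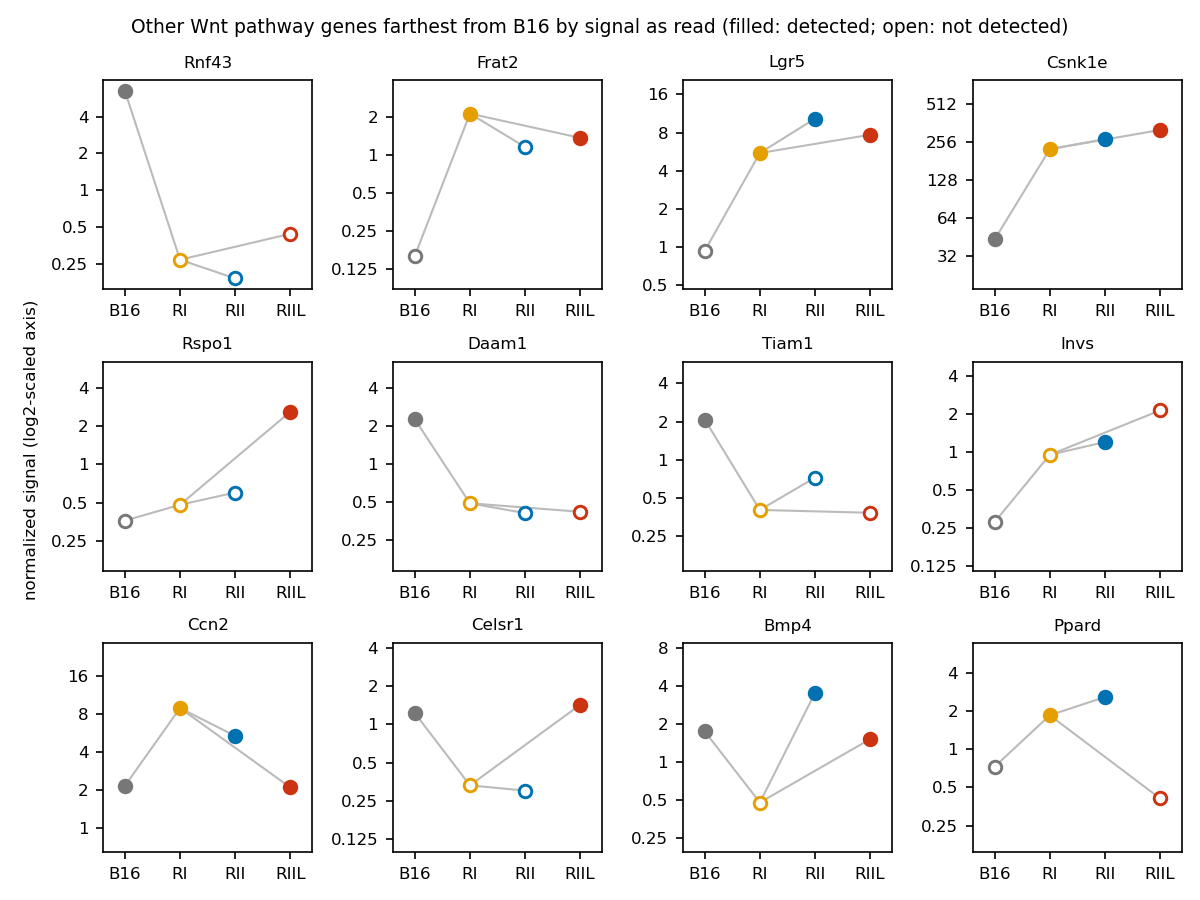
Normalized signal (vertical axes, log2-scaled, each over its own range) on the 4 arrays of the 12 other pathway genes farthest from B16 by signals as read, with grey lines joining each line to the one it was grown from. Filled points were detected and open points were not; Rnf43, Daam1 and Tiam1 were detected on B16 alone, and Csnk1e was detected on all 4 arrays.

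A few genes of wide interest fell outside that choice and were picked after their values were seen. Lef1, the lymphoid enhancer factor of the Tcf family, had 2 probes that were detected on no array. Ccnd1, the cyclin that starts the cell cycle, read 128 in B16, 149 in B16-RI, 131 in B16-RII and 70.8 in B16-RIIL. Myc read 123, 133, 107 and 238 in the same order, and Wls, which carries Wnt ligands to the cell surface, read 21.5, 35.0, 35.0 and 30.8. On the deposited scale none of the last 3 differed 2-fold from B16. In the lung line Ccnd1 was the lowest and Myc the highest of the 4 readings of each probe, with Ccnd1 highest on B16-RI and Myc lowest on B16-RII.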

How the data were processed

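RNA of 4 cultured lines was labelled with digoxigenin and read on Applied Biosystems mouse arrays. The study describes duplicates, and the labels hold 1 sample per line. The authors deposited a raw intensity and a normalized intensity for 33012 probes, and the normalized intensity was found to be the raw signal divided by 1 of 2 constants per array, for sets of 16524 and 16488 probes (30 and 26 member probes). Quantile normalization, which the methods of the study name, had not been applied to it. The deposited table also gives analyzer scores, a signal-to-noise ratio and a flag, and the limits of 3 and 5000 are those of the study's methods. A further 30 columns of second arrays fit none of the labelled samples and were left out, as were 14 derived columns of log2 values and ratios. The genome build behind the probes is not given in the sources used here.

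The normalized signal was put on the log2 scale with no pseudocount. A probe was counted when it differed by at least 1 log2 unit and was detected on the brighter array. With 1 array used per line no test, SD or p-value was computed. The members and lists were chosen with earlier results of these data known. Members were named in full when a probe was counted between any pair of lines. Ctnnb1 (as Catnb), Apc, Axin2, Gsk3b, Lrp5, Lrp6 and the Dishevelled genes were named whatever their change. Axin1 was planned as well but matched no probe under that symbol. Of the other pathway genes the 12 farthest from B16 by signals as read were named. The median of each list took 1 probe per gene, the brightest among those detected on all arrays. The alternatives were quantile normalization, median scaling, 75th percentile scaling of the raw signals, centring of each probe set, an S/N limit of 5, detection on both arrays, no detection filter, and limits of 1.5-fold and 4-fold. Older symbols and promoter sequences came from RefSeq tables of GRCm38.p6. The counting was tested on simulated data in which all arrays detected the same probes. It therefore did not cover differences in which 1 of the 2 arrays lacks detection. The tools were Python 3.11.15 with pandas 2.3.3 and numpy 2.4.6, and matplotlib 3.10.9 for figures.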

Additional observations from a re-analysis of the deposited data

How the results depend on the processing

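No paired analysis was possible because the labels hold 1 sample per line and 1 array per line was used, and for the same reason no replicate was left out. Of 117 alternative values of 17 results, 71 stayed close to the value given, 45 moved and 1 reversed. The cause was not tested unless the setting itself changes how many probes can be counted.

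Above B16 on B16-RI, 2 member probes were counted at an S/N of 5, 2 with detection on both arrays, 9 without a detection filter, 11 at 1.5-fold and 2 at 4-fold. On B16-RII there were 3 with centred probe sets, 3 with detection on both arrays, 15 at 1.5-fold and 2 at 4-fold. On B16-RIIL there were 5 under median scaling, 8 without the filter, 11 at 1.5-fold and 0 at 4-fold. Below B16 on B16-RI, the count was 1 under quantile normalization, 1 under 75th percentile scaling, 1 with centred sets, 2 without the filter and 2 at 1.5-fold. On B16-RII it was 2 under 75th percentile scaling, 1 with centred sets, 3 without the filter and 1 at 1.5-fold. On B16-RIIL it was 0 at an S/N of 5, 0 with detection on both arrays, 5 without the filter and 1 at 4-fold.

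Between B16-RII and B16-RI the count was 2 at an S/N of 5, 1 with detection on both arrays, 12 without the filter and 0 at 4-fold. Between B16-RIIL and B16-RI it was 7 under quantile normalization, 1 at an S/N of 5, 1 with detection on both arrays, 11 without the filter, 12 at 1.5-fold and 2 at 4-fold. Between B16-RIIL and B16-RII it was 0 at an S/N of 5, 0 with detection on both arrays, 10 without the filter, 9 at 1.5-fold and 1 at 4-fold.

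The median of the members minus that of all genes was 0.16 log2 units on B16-RI with centred sets. Without the filter it was 0.11 on B16-RI, -0.032 on B16-RII, where it reversed, and 0.14 on B16-RIIL. At an S/N of 5, 15 member probes were detected on B16-RI. The scalings of the count higher at each step were chosen after seeing the data. Signals near an S/N of 3, such as those of Fzd8, Dkk2, Apc, Porcn, Frat2 and Celsr1, are limited by signal over background.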
